A study of Mus musculus with 6 samples.

Results

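The sites described here are RNA G-quadruplex motifs read for reverse-transcription stops in mouse embryonic stem cells on day 7 of embryoid body differentiation. A site was kept when at least 20 reads covered it with K+ and with Li+ in both day 7 replicates, and when it lay outside the mitochondrial genome and outside the gene entries CT010467.1 and Gm15564, which carry ribosomal RNA. Of the 5538 sites listed, 3036 met the rule, in 1499 of 2643 gene entries. A further 9 sites were deep enough but lay in the excluded entries, and 2493 fell below the minimum in at least 1 of the 4 libraries, 908 of them listed at 0 in at least 1 library, where a listed 0 stands for at most 5 reads. The 226 sites whose lowest coverage was 20 to 22 had median stop shares of 4.60%, 3.27%, 3.13% and 4.65% (replicate 1 K+, replicate 1 Li+, replicate 2 K+, replicate 2 Li+). The 264 sites just below the minimum, at 17 to 19 reads, had 4.58%, 2.72%, 3.77% and 5.26%.

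All samples came from 1 clonal embryonic stem cell line of a 129S1/CastEiJ x 129S1 cross heterozygous for the TsixTST allele (written TsixTST/+), although the genotype field reads WT and the treatment field reads None. The stem cells were grown on inactivated feeder cells with leukemia inhibitory factor (LIF), then freed of feeders and differentiated without LIF, in suspension until day 3 and attached to gelatin-coated plates after it. There were 2 samples each for day 0, day 3 and day 7, and every sample was exposed to dimethyl sulfate (DMS) in the living cells before its chromatin-bound polyadenylated RNA was purified, fragmented and size-selected at 60 to 80 nt. Each day 7 sample also has an in vitro table, whose preparation the labels do not describe. The labels do not say that the replicates are separate cultures, so p-values measure only the spread between these samples, which may be technical.

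An RNA G-quadruplex is a compact fold in which runs of guanines stack as planar squares around a central cation. K+ stabilises the fold and Li+ does so poorly, so a reverse transcriptase that meets a folded motif tends to stop at its 3′ edge in K+ and to read through it in Li+. DMS methylates guanines at a position that the fold uses for its own hydrogen bonds, so a motif that was open in the cell is modified and can no longer fold when K+ is supplied afterwards, whereas a motif that was folded or otherwise shielded keeps that ability. The measured quantity is the stop share, the stops at a site divided by the reads that cover it, and the comparison of interest is K+ against Li+ within each replicate.

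The motifs below are among those whose values the comparison turns on. They were chosen after their values were seen, as were the other single sites named below apart from the most covered genes and those with the smallest p between days or preparations, because no site passed the adjusted test on which the planned choice rested. Each is given 5′ to 3′ in DNA letters as deposited, up to 30 bases ending at the last base marked as a stop position, with capitals marking runs of at least 3 guanines, and with 1-based coordinates on GRCm38.p6 (mm10). The first 5 are canonical motifs (4 guanine runs with short loops) in 3′ untranslated regions, with higher K+ than Li+ shares in both replicates, and Xist is a canonical motif of a noncoding RNA.
Prrc2a, chr17:35149171-35149196, minus strand: GGGGtGGGtGGGGaGGGGttgtGGGt
Hnrnpa0, chr13:58127056-58127078, minus strand: GGGtGGGGGttGGGcGGGaGGGt
Stip1, chr19:7020794-7020823, minus strand: ggcagtGGGtgcatacGGGGaGGGGaGGGt
Vat1, chr11:101459291-101459316, minus strand: GGGGtcGGGGGtctGGGGGtaGGGGa
Ddx17, chr15:79529652-79529676, minus strand: GGGaGGGtGGGtaGGGaaggaGGGa
Xist, chrX:103460423-103460446, minus strand: GGGtGGGtGGGtGGGtGGGtGGGt

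The next set is made of motifs outside the canonical class. Thrap3 and Tra2a (bulged motifs, in which an interrupted guanine run is allowed) were higher in K+ in both replicates. Peg10 (long-loop) went opposite ways in the replicates. Hnrnpa1 (long-loop), Srp14 (bulged) and Arid1a (two-quartet, built on guanine pairs) were lower in K+ in both. Cmc4;Mtcp1 and Ankrd60 (bulged) had high shares with either cation.
Thrap3, chr4:126165139-126165165, minus strand: gctggtggtgtGGGGGGtGGGcaGGGt
Tra2a, chr6:49245562-49245591, minus strand: ggaggaggaggtggcggaggaggaggtggt
Peg10, chr6:4759656-4759685, plus strand: ggattgttaagtaatcttaggtGGGtGGGt
Hnrnpa1, chr15:103245209-103245237, plus strand: GGGttgtGGGtGGGtgttgcttttGGGGt
Srp14, chr2:118476090-118476112, minus strand: gaaggactGGGatGGGcttGGGc
Arid1a, chr4:133681829-133681855, minus strand: ggaagaaGGGGttggaaatgatgagga
Cmc4;Mtcp1, chrX:75416440-75416468, minus strand: GGGcagctagctGGGcagcaGGGaggcgg
Ankrd60, chr2:173578298-173578327, minus strand: gacgcGGGccatgcggaGGGcggcagacgt

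The replicates gave different answers for the sites as a whole. In replicate 1, 44042 of 767592 K+ reads ended as stops (5.74%) against 59634 of 1419040 Li+ reads (4.20%). In replicate 2 the order was the other way, with 17613 of 408221 K+ reads (4.31%) against 15478 of 320574 Li+ reads (4.83%). K+ minus Li+ was therefore 1.54 percentage points in replicate 1 and -0.514 in replicate 2, a mean difference of 0.511 points (SD of the differences 1.45, n = 2) with an exact permutation p of 0.667, two-sided, where 2 libraries against 2 cannot go below 0.333. The median site was covered by 116 K+ and 215 Li+ reads in replicate 1 and by 68 and 54 in replicate 2, and the numbers of sites without any stop were 155, 91, 526 and 577 in that order. Depth and the balance of the cations thus differed between the replicates along with the result, and their part in it was not tested.

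At 2075 of the 3036 sites (68.3%) the K+ share was above the Li+ share in replicate 1, and at 925 (30.5%) it was below. In replicate 2 the K+ share was above at 1270 sites (41.8%) and below at 1554 (51.2%). Both replicates had the higher share in K+ at 928 sites (30.6%) and the lower at 499 (16.4%). The K+ and Li+ libraries did not overlap at 620 sites with K+ higher (20.4%) and at 324 with K+ lower (10.7%). The median log2 odds ratio of a stop, K+ over Li+, was 0.52 in replicate 1 (quartiles -0.09 to 1.15) and -0.22 in replicate 2 (quartiles -0.96 to 0.61). It had the same sign in both replicates at only 50.3% of sites. A higher share in K+ in both replicates is therefore not by itself a sign that they agree.

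No site was called in a fit over both replicates. limma on the log2 odds, with the sample as a block and Benjamini-Hochberg adjustment over all 3036 sites, called 0 sites higher (0.0%) and 0 lower (0.0%), with a smallest adjusted p of 0.709. At an unadjusted p under 0.05 it held 159 sites higher in K+ (5.24%) and 19 lower (0.626%). Fisher's exact test on the reads of each replicate, two-sided and adjusted within the replicate, called 203 sites higher in K+ in replicate 1 (6.69%) and 1 lower (0.0329%), the Srp14 site. In replicate 2 it called 3 higher (0.0988%), which were 2 overlapping Prrc2a sites and 1 Pnck site, and 0 lower (0.0%). Only 1 site, the Prrc2a motif printed above, was called higher in both (0.0329%). Fisher's test compares 2 libraries and covers counting error only. Reads without molecular identifiers are not independent molecules, so these p-values and the intervals below describe the libraries and not the cells in general.

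**Figure D1:**
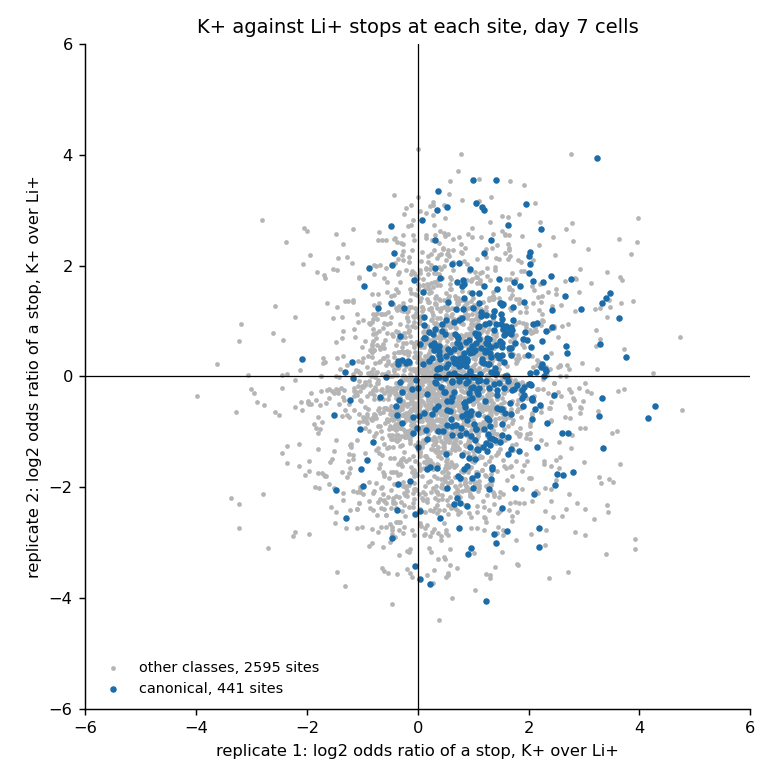
Log2 odds ratio of a stop, K+ over Li+, at each of the 3036 sites, replicate 1 on the horizontal axis and replicate 2 on the vertical axis, with the 441 canonical motifs in blue and the other classes in grey. The cloud is centred at 0.52 along replicate 1 and at -0.22 along replicate 2, and canonical motifs lie further to the right than the rest.

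Across sites the stop shares agreed better between replicates than the cation differences did. Over the 3036 sites, which share libraries and differ in depth, K+ shares of the replicates correlated with Pearson's r of 0.66, Li+ shares with 0.57, and the log2 odds ratios with 0.09. At the 322 sites with at least 200 reads in each library the values were 0.88, 0.89 and 0.26. K+ and Li+ shares of the same replicate correlated at 0.90 in replicate 1 and 0.93 in replicate 2 at those deep sites, so the level of a site was largely common to both cations. The shares are not independent replicates across sites, since 1331 sites overlap another listed motif and the 3036 sites form 2267 groups of overlapping motifs.

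Sites called in replicate 1 were then read in replicate 2, which had no part in choosing them. Of the 203 sites higher in K+ in replicate 1, 128 (63.1%) were higher and 72 lower in replicate 2, beside 41.8% higher among all sites, and their median log2 odds ratio there was 0.24. Their pooled share in replicate 2 was 7.33% in K+ and 7.06% in Li+. The 92 canonical sites among them were higher in replicate 2 at 66 sites (71.7%), beside 54.0% of all canonical sites. Their pooled shares there were 7.96% in K+ against 6.05% in Li+. The 111 others were higher at 62 sites (55.9%), beside 39.8% of all sites outside the canonical class, with 7.00% against 7.61%. The mix of classes among the called sites thus has a part in the 63.1%. In the other direction, 35 sites were higher in K+ in replicate 2 at an unadjusted Fisher p under 0.05. Of these, 31 (88.6%) were higher in replicate 1, beside 68.3% of all sites, with a median log2 odds ratio of 1.46. Of the 63 sites lower in K+ in replicate 2 at that threshold, 45 (71.4%) were higher in replicate 1, close to the 68.3% of all sites.

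Canonical motifs had higher odds ratios than the other structural classes in both replicates. The 441 canonical sites had a median log2 odds ratio of 1.00 in replicate 1 and 0.09 in replicate 2. They were the only class whose median was above 0 in replicate 2. Pooled over these sites, stops made up 9.66% of K+ and 4.86% of Li+ reads in replicate 1, and 6.34% and 5.60% in replicate 2. K+ was the higher cation in both replicates at 48.3% of canonical sites and the lower in both at 6.58%, beside 30.6% and 16.4% of all sites. Taken singly, replicates 1 and 2 had K+ higher at 85.7% and 54.0% of canonical sites. Their log2 odds ratios had the same sign in both replicates at 56.5%. Fisher's test called 92 of them (20.9%) higher in K+ in replicate 1, beside 6.69% of all sites. At an unadjusted p under 0.05 limma held 72 higher and 0 lower, beside 5.24% and 0.626% of all sites.

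The 1247 bulged motifs, the most numerous class, had medians of 0.50 and -0.24 and pooled shares of 5.69% in K+ and 4.43% in Li+ in replicate 1 against 4.46% and 5.13% in replicate 2. The 380 long-loop motifs had medians of 0.67 and -0.24, and 31 of them (8.16%) were called in replicate 1, close to the 6.69% of all sites. The 572 two-quartet motifs, built on shorter guanine runs, had medians of 0.32 and -0.39 with 13 called (2.27%). The 367 potential G-quadruplexes had 0.26 and -0.21 with 8 called (2.18%), and the 29 potential G-triplexes had 0.23 and -0.17 with 1 called. In replicate 2 every class but the canonical one lay below 0. The difference between classes was not tested, because sites of a class share libraries and often a transcript.

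**Figure D2:**
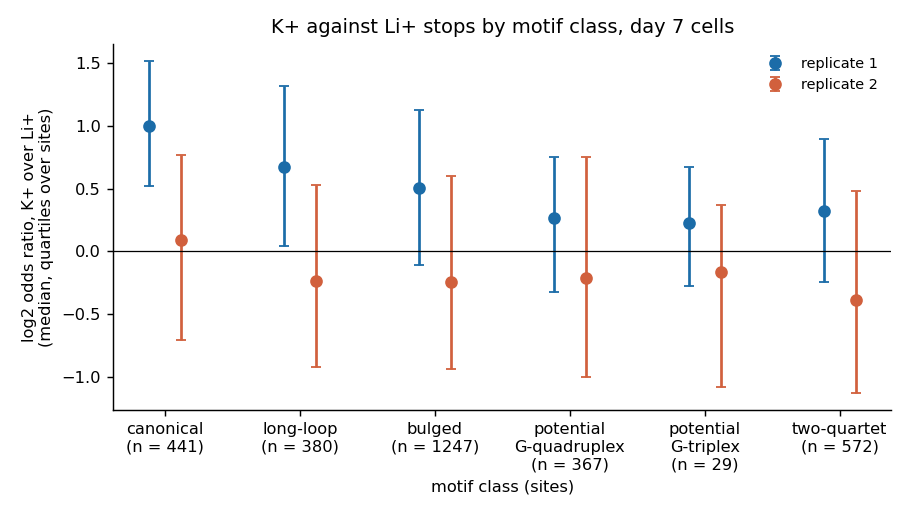
Median log2 odds ratio of a stop, K+ over Li+, with quartiles over sites, for each structural class on the horizontal axis and each day 7 replicate in its own colour. Canonical motifs have the highest median in both replicates (1.00 and 0.09), and every class is lower in replicate 2.

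The number of guanine runs in the deposited motif ordered the sites in a similar way. Sites with no run of at least 3 guanines (191 sites) had median log2 odds ratios of 0.28 and -0.45 in replicates 1 and 2. Sites with 1 run (238) had 0.26 and -0.40, with 2 runs (582) 0.38 and -0.27, with 3 runs (1041) 0.51 and -0.22, and with 4 runs (805) 0.73 and -0.16. Sites with 5 or more runs (179) had 0.96 and 0.24, so that both replicates were above 0 only in that group. Of those 179, 35 were called higher in K+ by Fisher's test in replicate 1, beside 6 of the 191 without a run. The number of runs takes part in how the classes are defined, so it is not independent of them.

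**Figure D3:**
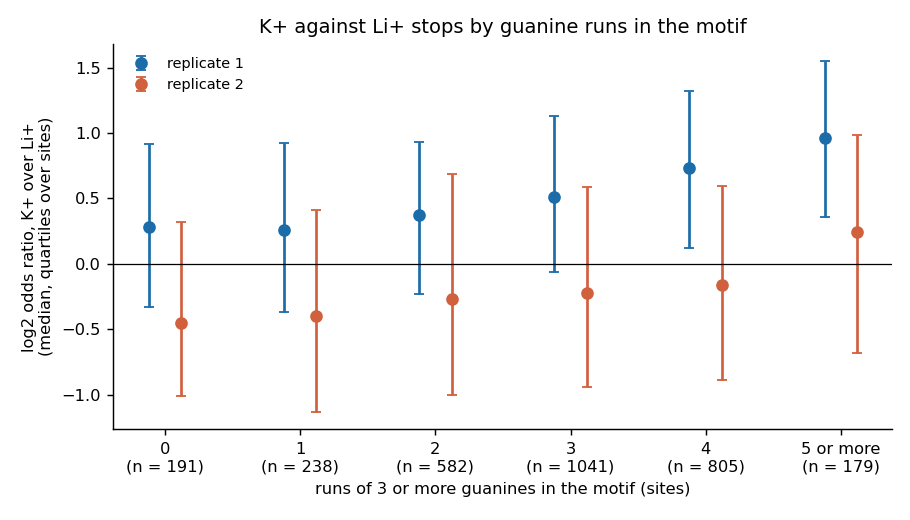
Median log2 odds ratio of a stop, K+ over Li+, with quartiles over sites, by the number of runs of at least 3 guanines in the deposited motif, for each day 7 replicate. The medians go from 0.28 and -0.45 without a run to 0.96 and 0.24 with 5 or more.

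By transcript region, the 1721 sites in 3′ untranslated regions had median log2 odds ratios of 0.65 and -0.15, and 161 of them (9.36%) were called higher in K+ in replicate 1, beside 6.69% of all sites. The 689 sites in coding sequence had 0.33 and -0.35 with 18 called (2.61%), and the 209 in 5′ untranslated regions had 0.34 and -0.41 with 5 called. The 112 sites of noncoding transcripts had 0.42 and -0.28 with 11 called. Most canonical sites were in 3′ untranslated regions: those 345 sites had medians of 1.09 and 0.22, pooled shares of 10.6% in K+ and 5.18% in Li+ in replicate 1 and of 6.62% and 5.63% in replicate 2, and K+ higher in both replicates at 54.2%. The 36 canonical sites in coding sequence had 0.78 and -0.30, with 1 called. Region and class were linked, and their parts were not tested separately.

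Depth moved with the number of calls but little with the size of the difference. With the sites put in 4 equal groups by coverage, Fisher's test in replicate 1 called 11, 21, 56 and 115 sites, from the least covered group to the most. Over the same span the median log2 odds ratio went from 0.59 to 0.45 in replicate 1 and from -0.22 to -0.17 in replicate 2. The 95 sites on the X chromosome had medians of 0.41 and -0.11.

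Among single sites, the Prrc2a motif had the smallest limma p. PRRC2A is a large proline-rich coiled-coil protein. Stops made up 16.4% of 67 K+ reads and 1.92% of 260 Li+ reads in replicate 1, and 13.7% of 131 and 0.704% of 142 in replicate 2. Both K+ libraries lay far above both Li+ libraries. The fitted log2 odds ratio was 3.62 ± 0.51 (SE, n = 2), with an unadjusted limma p of 0.000484 that became 0.709 after adjustment over all sites. Fisher's exact test gave adjusted p = 0.00101 in replicate 1 and 0.0192 in replicate 2.

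Several genes of RNA processing and RNA binding carried a site that was higher in K+ in both replicates. Their gene lists were close to the background. Of 40 sites of splicing factors 12 were higher in both replicates. For helicases and binding proteins of RNA G-quadruplexes it was 36 of 117 sites (30.8%), beside 30.6% of all sites. Hnrnpa0 encodes a heterogeneous nuclear ribonucleoprotein that binds messenger RNAs. Its motif printed above was among the deepest sites higher in K+ in both replicates. Stop shares were 17.7% of 1269 K+ and 4.14% of 2438 Li+ reads in replicate 1. In replicate 2 they were 11.6% of 398 and 6.84% of 395. The groups did not overlap, and the fitted log2 odds ratio was 1.68 ± 0.42 (SE, n = 2). Ddx17 encodes a DEAD-box RNA helicase, and its shares were 22.6% of 155 against 3.95% of 228 reads and 10.5% of 95 against 2.86% of 70. Thrap3 encodes a protein of splicing and messenger RNA processing, with 22.8% of 101 against 5.92% of 169 and 14.6% of 41 against 2.33% of 43. In percentage points, though not as an odds ratio for Thrap3, the gap at each of these sites was wider in replicate 1. Tra2a, a splicing regulator, had 14.1% of 78 against 2.11% of 142 and 13% of 46 against 0 of 50 reads, at a motif of guanine pairs without a run of 3. Srrm2, a spliceosome-associated scaffold of nuclear speckles, had a site with 19.8% against 4.89% and 8.15% against 2.83%. Other sites of the same genes did not all share this order. Of 17 Hnrnpa0 sites, 4 were higher in K+ in both replicates and 4 lower in both. For Srrm2 it was 2 and 1 of 7 sites, and for Ddx17 3 and 1 of 6.

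A site each of Arnt and Smarce1, which act in transcription and chromatin, had the same order, although of 38 sites in the list of chromatin genes only 8 (21.1%) were higher in K+ in both replicates, beside 30.6% of all sites. Arnt, with a site listed as a potential G-quadruplex, encodes the dimer partner of the aryl hydrocarbon receptor and of hypoxia-inducible factors. Its shares were 13.5% of 230 K+ against 2.09% of 382 Li+ reads in replicate 1 and 8.00% of 150 against 1.41% of 213 in replicate 2, with a fitted log2 odds ratio of 2.64 ± 0.43 (SE, n = 2). Smarce1, a subunit of the BAF chromatin remodelling complex, had 29.7% of 172 against 13.3% of 430 and 20.6% of 63 against 6.82% of 88. Its Li+ shares were themselves higher than those of most sites.

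Metabolic, cytoskeletal and folding genes carried further sites of this kind. Acads encodes the short-chain acyl-CoA dehydrogenase of mitochondrial fatty acid oxidation, and its shares of 20.1% of 139 against 4.40% of 250 reads in replicate 1 and 17.2% of 87 against 5.26% of 95 in replicate 2 were close between replicates. Stip1 encodes a co-chaperone of heat shock proteins, with 21.1% of 722 against 7.65% of 1346 and 15.1% of 445 against 8.66% of 358. Pdap1, which encodes a platelet-derived growth factor associated protein, had 24.8% of 552 against 10.2% of 841 and 16.4% of 408 against 7.28% of 316. Pdap1, Stip1 and Hnrnpa0 were each covered by over 300 reads in every library. Vat1, a vesicle amine transport protein, had 21.9% of 155 against 6.44% of 233 and 14.5% of 117 against 3.23% of 93. Arpc4, a subunit of the actin-nucleating Arp complex, had 27.1% against 11.4% and 18.6% against 8.16%. Fitted log2 odds ratios of these sites were 2.17 ± 0.39 for Acads, 1.33 ± 0.30 for Stip1, 1.43 ± 0.24 for Pdap1 and 2.07 ± 0.35 for Vat1 (SE, n = 2), and none passed limma after adjustment.

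**Figure D4:**
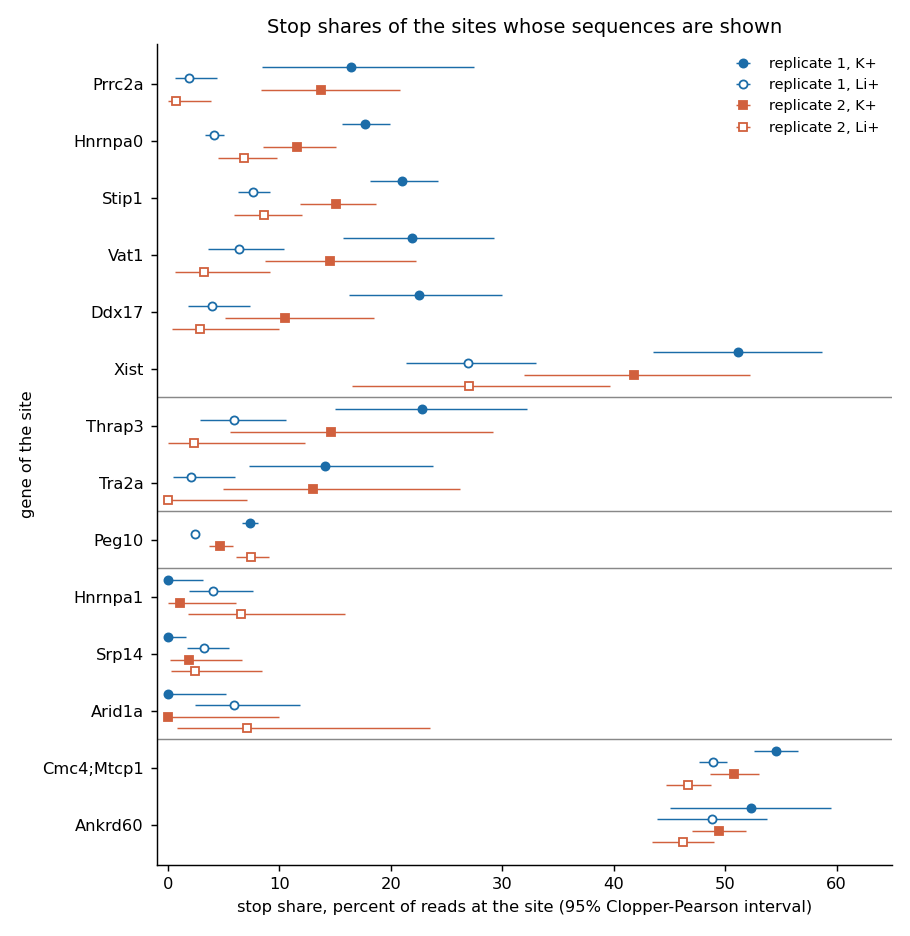
Stop share, in percent of the reads at the site, with its 95% Clopper-Pearson interval, for the sites whose sequences are shown, in the K+ and Li+ libraries of both day 7 replicates. The Prrc2a K+ shares (16.4% and 13.7%) lie far from its Li+ shares (1.92% and 0.704%), while the 4 shares of Cmc4;Mtcp1 lie together between 46.7% and 54.6%.

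Sites of this kind were called under 2 alternatives, both added after seeing the data. In both, limma gave all sites 1 common spread, whereas the main fit also used the spread of each site. Their p-values are thus not directly comparable with those of the main fit. When each library pair was centred on its median site, limma called 32 sites higher (1.05%) and 6 lower (0.198%) in K+ relative to that median, the Prrc2a motif with adjusted p = 7.46e-07. At the 322 sites with at least 200 reads in every library, limma called 7 higher (2.17%) and 0 lower (0.0%). Those 7 were the sites of Hnrnpa0 (log2 odds ratio 1.77), Pdap1 (1.44), Stip1 (1.36), Phlda3 (1.92), a pair of overlapping motifs of Tubb5 (1.85 and 1.46) and Atic (0.93). Phlda3 encodes an inhibitor of Akt signalling, Tubb5 a beta tubulin, and Atic the enzyme of the last steps of purine synthesis.

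Sites lower in K+ at an unadjusted limma p under 0.05 were the 19 given above. In replicate 2 alone, lower sites outnumbered higher ones, with 63 lower and 35 higher at an unadjusted Fisher p under 0.05, against 13 and 492 in replicate 1. Hnrnpa1, another heterogeneous nuclear ribonucleoprotein, had 0 stops in 115 K+ reads against 4.09% of 220 Li+ reads in replicate 1, and 1.14% of 88 against 6.56% of 61 in replicate 2. Its fitted log2 odds ratio was -2.92 ± 0.74 (SE over both replicates). The unadjusted limma p was 0.00845. Srp14, a subunit of the signal recognition particle, had 0 of 227 against 3.26% of 399 reads in replicate 1, but 1.89% of 106 and 2.41% of 83 in replicate 2, where the shares were close. Arid1a, the AT-rich DNA-binding subunit of the BAF complex, had 0 of 69 against 5.93% of 118 and 0 of 35 against 7.14% of 28. At higher shares, Rnf44, which encodes a RING finger protein, had a site with 17.2% in K+ against 28.1% in Li+ in replicate 1 and 6.90% against 23.2% in replicate 2. In the centred fit the 6 lower calls spanned bulged, long-loop, two-quartet and potential G-quadruplex motifs, with no canonical one. Canonical motifs are 441 of the 3036 sites, so their absence among 6 calls is not read as a result.

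At some sites the stops were frequent with either cation. The bulged motif shared by Cmc4 and Mtcp1, whose annotated region is a 5′ untranslated region, had stop shares of 54.6% of 2399 K+ and 48.9% of 6053 Li+ reads in replicate 1 and of 50.8% of 1995 and 46.7% of 2330 in replicate 2. Ankrd60, which encodes an ankyrin repeat protein, had 52.3% and 48.8% in replicate 1 and 49.4% and 46.2% in replicate 2. These shares were more than 10 times the median site share of any library. At Cmc4;Mtcp1 K+ was higher in both replicates, with Fisher's exact adjusted p = 0.000154 in replicate 1, and an unadjusted p of 0.00724 in replicate 2 that did not hold after adjustment (1.0). A site listed for Gm45713 and Rpl13a, a ribosomal protein gene, had 45.8% and 33.8%, then 36.2% and 29.4%. Pnck, a calcium/calmodulin-dependent kinase gene, had 24.4% and 25.3% in replicate 1 but 42.1% and 33.5% in replicate 2, where Fisher's exact test gave adjusted p = 6.07e-08. At Pnck the cations were close in replicate 1.

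Peg10, a retrotransposon-derived imprinted gene, went opposite ways in the replicates at a deeply covered site. Its site had 7.38% of 4922 K+ against 2.44% of 10161 Li+ reads in replicate 1, with Fisher's exact adjusted p = 3.41e-40. In replicate 2 it had 4.66% of 1545 against 7.50% of 1267, log2 odds ratios of 1.67 and -0.73. The fit over both gave 0.53 ± 0.62 (SE, n = 2). No site was called by Fisher's test in opposite directions after adjustment.

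None of the 6 genes with the most reads at a site was called by limma. Hnrnpa2b1, a heterogeneous nuclear ribonucleoprotein, had 2.57% in K+ and 2.77% in Li+ in replicate 1, and 1.26% and 2.11% in replicate 2. A second Peg10 site had 3.20% and 1.64%, then 1.85% and 2.37%, and H19, an imprinted noncoding RNA, had 5.25% and 3.86%, then 2.30% and 3.64%. Each of these genes had the lower share in K+ in replicate 2. Rpl8, a ribosomal protein gene, had 5.68% and 5.21%, then 5.28% and 5.39%. Tmsb4x, which encodes an actin-sequestering thymosin, had 1.78% and 1.36%, then 0.894% and 1.04%, and Eef2, translation elongation factor, had 1.43% and 1.18%, then 1.29% and 1.59%. Adjusted limma p-values of the 6 ran from 0.936 to 1.

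Noncoding and imprinted RNAs were covered by many sites. H19 had 15 sites, all higher in K+ in replicate 1 and 8 higher in replicate 2, with 5 called by Fisher's test in replicate 1 (33.3%). Malat1, a nuclear speckle RNA, had 12 sites, of which 11 were higher in replicate 1, 2 in replicate 2, and 5 called in replicate 1 (41.7%). Among all sites 68.3% and 41.8% were higher in K+ in replicates 1 and 2 and 6.69% were called in replicate 1. In the most covered of the 4 coverage groups 15.2% were called, and 20.8% at the 322 sites with at least 200 reads in each library. The sites of H19 and Malat1 were deeper still, with median summed coverage of 9227 and 5844 reads. They form 6 and 8 groups of overlapping motifs, so they are not separate observations. In both transcripts fewer sites were higher in K+ in replicate 2. Xist, which coats the inactive X and silences it, had 9 sites, 5 higher in replicate 1 and 4 in replicate 2. Its canonical motif above, made of 6 runs separated by single bases, had stops in 51.1% of 178 K+ and 26.9% of 238 Li+ reads in replicate 1, and in 41.8% of 98 and 27.0% of 63 in replicate 2. The fitted log2 odds ratio was 1.30 ± 0.26 (SE over both replicates). The adjusted limma p was 0.766.

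Gene lists were read by their counts beside the 68.3% and 41.8% of all sites that were higher in K+ in replicates 1 and 2 and the 6.69% called in replicate 1. For nuclear noncoding RNAs, 54 sites in 9 gene entries had medians of 0.42 and -0.22 with 11 called (20.4%), and for imprinted genes 29 sites had 0.51 and -0.37 with 8 called (27.6%). The shares called are above the background, and both lists hold very deep sites, with calls falling mostly in H19 and Malat1. For helicases and binding proteins of RNA G-quadruplexes, the medians were 0.39 and -0.26 with 13 called (11.1%). This list holds 117 sites in 18 genes, with a median summed coverage of 1119 reads beside 454 over all sites. Dhx9, a helicase that unwinds such structures, held 22 of them, 17 higher in replicate 1 and 9 in replicate 2, with 4 called. For pluripotency genes, 23 sites had 0.76 and -0.07 with 3 called, and for stress and immediate early genes 31 sites had 0.63 and -0.00 with 3 called. Ddit4, an inhibitor of the mTOR kinase induced by stress, had 12 sites, all higher in replicate 1 and 6 in replicate 2.

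The remaining lists held up to 4 calls each. Primitive streak genes (7 sites, medians 0.61 and 0.39), epithelial genes (16 sites, 0.75 and -0.47), neural genes (9 sites, 0.51 and -0.78), extracellular matrix genes (6 sites, 0.03 and -0.10) and Polycomb genes (11 sites, 0.74 and -0.43) had 0 calls by Fisher's test in replicate 1. Cytoskeletal genes had 4 calls among 32 sites (12.5%), glycolysis genes 2 among 17 (11.8%), splicing factors 4 among 40 (10.0%) and translation genes 2 among 21 (9.52%). Chromatin genes had 2 among 38 (5.26%), and all sites 6.69%. The first 4 lists were deeper than the median site, with median summed coverage of 1563, 1822, 557.5 and 1130 reads against 454. In the most covered of the 4 coverage groups (median 1538 reads) 15.2% were called, so these shares are not set apart from depth. In replicate 2 Fisher's test called 0 sites in each of the 15 lists, and limma called 0 in either direction. At an unadjusted limma p under 0.05 the 117 helicase and binding protein sites, for example, held 6 higher and 2 lower.

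The day 7 label was read against marker reads at listed sites. Krt8 and Krt18 (simple epithelium), Dbn1 and Sox11 (neural), T (mesoderm) and Col1a1 (fibroblasts, mesenchyme) were listed at 0 on day 0 and day 3. All were read in both day 7 replicates, Krt18 with 1625 and 405 reads, Col1a1 with 76 and 29, and T with 50 and 22. Depth differed between samples. At the 838 sites deep enough in all 6 samples, K+ reads numbered 469822 and 254300 in the day 7 replicates. Day 0 had 325088 and 108840, and day 3 had 62986 and 126759. A listed 0 stands for at most 5 reads, so low levels of T or Col1a1 could go unlisted in the shallower samples. Their absence there was not tested. Pou5f1, which marks pluripotent cells, held 0.322% and 0.308% of listed reads on day 0 and 0.0265% and 0.0766% on day 7. Other listed markers did not follow that order. Lin28a, also a pluripotency gene, held 0.0701% and 0.0839% on day 0 and 0.137% and 0.113% on day 7. Tubb3, a neural tubulin, held 0.0149% and 0.0331% on day 0 and 0.00591% and 0.00306% on day 7, and Epcam (epithelium) and Fn1 (matrix) were read on every day. Fewer cells of a type and less RNA per cell cannot be told apart in such bulk samples, and the part of this mixture in the stop shares was not tested. Nanog, Zfp42, Klf4, Thy1 and Gata4 have no listed site.

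Day 7 was set beside the other days at the 838 sites, in 470 genes, with at least 20 reads per cation in all 6 samples. Before any change is read, 1 sample stood apart: at the Prrc2a motif the sample labelled day 0 replicate 2 had stops in 1.06% of 94 K+ and 16.2% of 74 Li+ reads, the reverse of day 0 replicate 1 with 18.6% of 183 and 1.01% of 99. Its log2 odds ratios across the 838 sites correlated with those of the other samples at -0.28 to 0.01, with depth and site composition shared. The other samples correlated with each other at -0.02 to 0.23, so values near 0 were not particular to it. Median log2 odds ratios in replicates 1 and 2 were -0.16 and -0.51 for day 0, 1.32 and 0.34 for day 3, and 0.49 and -0.13 for day 7, and K+ was higher at 45.7% and 28.9%, 74.3% and 63.0%, and 73.6% and 45.1% of sites. The ranges of the day 3 and day 7 samples overlapped. As labelled, the day 0 range lay just below that of day 7. Whether the K+ and Li+ libraries of day 0 replicate 2 were exchanged was not tested. With its cations exchanged, an alternative added after seeing the data, its median was 0.51 with K+ higher at 63.1% of sites, and the day 0 range of -0.16 to 0.51 then spanned that of day 7.

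The interaction of cation and day passed at no site. limma called 0 of 838 sites higher (0.0%) and 0 lower (0.0%) on day 7 against day 0, with a smallest adjusted p of 0.256, and 92 higher and 3 lower at an unadjusted p under 0.05. Without day 0 replicate 1, which leaves the deviating sample as the only day 0 sample, 53 sites were called. Without day 0 replicate 2, 0 were, and with its cations exchanged 0 were, with 18 higher and 4 lower at an unadjusted p under 0.05. Against day 3, limma called 0 higher (0.0%) and 0 lower (0.0%), with 4 higher and 41 lower at an unadjusted p under 0.05. Among the sites with the smallest p as labelled, Tsc22d1, a leucine zipper gene, had 3.38% in K+ and 8.33% in Li+ in day 0 replicate 1 and 0 of 50 and 12.5% in day 0 replicate 2, with a day 7 minus day 0 change of 3.89 on the log2 scale. Acads had 5.07% and 6.36%, then 3.70% and 6.67% on day 0, with K+ below Li+ in both samples as labelled, and a change of 2.72. With the cations of day 0 replicate 2 exchanged, K+ was the higher in that sample at both sites, and the changes were 1.82 for Tsc22d1 and 2.05 for Acads. Without that sample they were 3.17 and 2.53. On day 3 Acads had 12.8% of 47 against 2.47% of 162 and 9.62% of 52 against 0 of 27, the same order as on day 7.

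In vitro the cation difference was far larger. At the 2639 sites, in 1303 genes, with 20 reads in all 8 day 7 libraries, in vitro stops made up 45.1% and 44.9% of K+ reads and 9.11% and 8.23% of Li+ reads in the replicates. Median log2 odds ratios were 3.45 and 3.60, beside 0.52 and -0.22 in cells. limma called 1969 sites with a higher K+ against Li+ odds ratio in vitro than in cells (74.6%) and 0 lower (0.0%), with a median difference of 3.35. All 5538 listed sites had the higher share in K+ in both in vitro tables. How the list was made is not described in the labels, though the deposited stop marks are named for K+. Both the direction and the size of this comparison may thus have been set by that choice. Across sites the in vitro and in-cell log2 odds ratios correlated at 0.07 in replicate 1 and -0.03 in replicate 2, whereas the in vitro replicates correlated at 0.61.

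Single sites spanned the range of in vitro and in-cell differences. Slc16a3, a lactate transporter gene, had K+ and Li+ shares of 86.9% and 8.22%, then 87.7% and 6.01% in vitro, and of 2.64% and 5.62%, then 4.59% and 8.52% in cells. K+ was the lower cation in cells and the higher in vitro, with a difference of 7.41 ± 0.44 on the log2 scale (SE over both replicates of each preparation). The adjusted limma p was 0.000733. Fkbp8, an immunophilin gene, Rcc2, a regulator of chromosome condensation, and Tnks2, a tankyrase gene, followed with 5.82, 5.83 and 5.67. Sites chosen for a high ratio in cells have a smaller difference by that choice. Prrc2a had 62.2% and 3.64%, then 48.5% and 12% in vitro, a difference from cells of 0.55 ± 0.93. Ddx17 had 26.4% and 6.42%, then 17.5% and 8.00%, a difference of -0.55, and Acads 34.5% and 20.0%, then 44.3% and 10.4%, a difference of -0.27. Other sites of this kind had larger odds ratios in vitro than in cells. Vat1 had 81.1% and 10.9%, then 84.7% and 12%, a difference of 3.10 ± 0.50 (SE). Arnt differed by 2.52 ± 0.99, Stip1 by 2.12 ± 0.44 and Arpc4 by 1.24 ± 0.59, the last of which did not pass limma (adjusted p 0.0831). Cmc4;Mtcp1 had 53.6% and 41.1%, then 46.8% and 36.1%, shares of the same order as in cells.

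**Figure D5:**
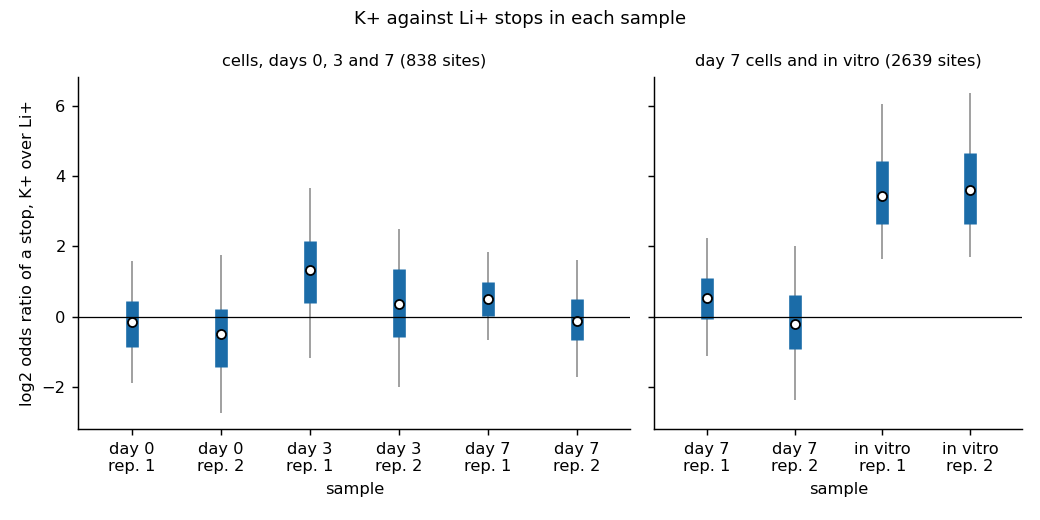
Log2 odds ratio of a stop, K+ over Li+, over sites in each sample: the 6 in-cell samples of days 0, 3 and 7 at 838 sites, and the day 7 in-cell and in vitro tables at 2639 sites. Medians in cells lie between -0.51 and 1.32 and differ within a day, while both in vitro medians (3.45 and 3.60) lie above them.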

How the data were processed

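Reads were handled with cutadapt, STAR and SAMtools and the build was GRCm38.p6 (mm10), per the submitters' processing notes, with versions and settings not given in the sources used here. The authors deposited for each site the coverage and stops in K+ and Li+ as read counts without normalisation, per the file headers. Shares were stops over coverage. The log2 odds (pseudocount 0.5) were tested in limma 3.58.1 (R 4.3.3), weighted by a beta-binomial variance, with the sample as block, since both cations were read from the same sample. Cation by day and cation by preparation terms were fitted likewise. A call means an adjusted p (Benjamini-Hochberg) below 0.05. Fisher's exact test was run in R 4.3.3. Clopper-Pearson intervals and the permutation test used scipy 1.17.1, with tables joined in pandas 2.3.3 and figures drawn in matplotlib 3.10.9. The model was tested on simulated data. Deposited coordinates were checked against RefSeq promoter sequences at the 102 sites found in them, and all 102 agreed. Coordinates of the other sites were not checked. The genes meant for naming were those of the smallest adjusted p, the most reads, each list and each change. Since nothing passed, other sites were chosen after their values were seen. Members and lists were chosen with earlier results of these data known. Alternatives covered coverage minimum, pseudocount, weights, scale, block, left-out samples, excluded genes and 1 site per gene. Some sequences and 1 site are not reported here.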

Additional observations from a re-analysis of the deposited data

Results flagged for a closer look

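The K+ against Li+ odds differed between the in vitro and the in-cell day 7 tables at 1969 of 2639 sites by limma, all of them larger in vitro. All 5538 listed sites had the higher share in K+ in both in vitro tables. The shared direction is thus not independent of the list and is not read as a result. The size of the differences may depend on the list as well. With the log odds centred on each file's median site, 219 sites were called, 117 higher and 102 lower in vitro relative to that median. Among the sites with the smallest p in the fit without centring, the log2 values in vitro minus cells were 7.41 for Slc16a3, 5.83 for Rcc2, 5.82 for Fkbp8 and 5.67 for Tnks2.

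Opposite orders of the cations were looked for only among the sites with the smallest p for a change between days. That choice favours such a pattern, which was not counted over all 838 sites. At 4 of them, as labelled, both day 0 samples had the lower stop share in K+ and both day 7 samples the higher. These were Acads, Aldh2, Ap2b1 and Tsc22d1, with day 7 minus day 0 changes of 2.72, 2.26, 3.69 and 3.89 on the log2 scale. None passed limma after adjustment, and the opposite directions themselves were not tested. Day 0 replicate 2 stood apart from the other samples. With its K+ and Li+ exchanged, the day 0 samples no longer share a direction at these sites, and the changes were 2.05, 1.03, 1.78 and 1.82. Without it they were 2.53, 2.36, 3.56 and 3.17.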

How the results depend on the processing

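The count of 0 sites called for K+ against Li+ on day 7 held under each alternative but the added ones: 38 sites (32 higher, 6 lower) with the log odds centred on each file's median site and 7 with a coverage minimum of 200. Both added fits gave all sites 1 common spread, unlike the main fit. So did the fits of day 7 against day 0 with 1 day 0 sample left out. The replicate block is the sample from which both cations were read. With no replicate block 0 sites were called on day 7, 0 for each change between days and 2053 for in vitro against cells. Leaving out 1 day 7 sample left 1 of that day, and the spread then came from the day 0 and day 3 samples kept in those fits. The median fitted log2 odds ratio of 0.28 became -0.22 without replicate 1 and 0.52 without replicate 2. Of 46 named sites, 8 and 5 changed sign. Leave-one-out counts ran from 0 to 53 for day 7 against day 0 (53 without day 0 replicate 1), stayed at 0 against day 3, and ran from 680 (without in vitro replicate 1) to 2019 for in vitro against cells, with 876 without in vitro replicate 2. That comparison gave 882 sites at a minimum of 50 reads, where fewer sites were tested, and 219 when centred (117 higher, 102 lower), which tests differences relative to the median site. Fisher's single lower call in replicate 1 became 0 at a minimum of 10. With ribosomal and mitochondrial sites kept in, Fisher calls became 2 lower in replicate 1, 6 higher and 3 lower in replicate 2, 3 higher and 1 lower in both and 2 in opposite directions. Read depth limits replicate 2 most, with a median of 54 Li+ reads per site.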
